A study of Aspergillus niger with 8 samples.

Results

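Of the 15431 gene models counted in Aspergillus niger, 97 (0.629%) had far more reads at both times of carbon starvation than on glucose or on wheat straw. They were chosen by their values. Each count was scaled to CPM, counts per 1000000 reads on genes of its library, 5 CPM was added, and a gene was a member when the lowest of the 4 starvation libraries was at least 3 times the highest of the 4 glucose and straw libraries. The size of the difference between starvation and the other libraries is therefore what selected these genes, and it is given below as a description with no test. The differences between the 2 starvation times, and between straw and glucose, were not themselves compared by the rule and were tested, although the rule limited the level in all of these libraries.

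The libraries came from strain N402 of this saprophytic filamentous fungus, grown as mycelium at 28 °C in shaken flasks. Mycelium was sampled after 48 h in glucose medium, or was washed free of glucose and moved for 6 h to ball-milled wheat straw, for 6 h to medium with no carbon source, or for 24 h to medium with no carbon source. Each of the 4 conditions had 2 cultures, A and B, and all of them went through the same 48 h of growth on glucose. Straw cultures of 24 h were not analysed here. Nothing states whether A and B were grown side by side across conditions, so they were treated as unpaired, and p-values measure only the spread between these cultures.

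When a filamentous fungus runs out of carbon it stops extending, recycles its own cytoplasm and cell wall, and sends nutrients to the hyphae that survive. The response is known to include the secretion of hydrolases, the release of transporters and catabolic genes from repression by glucose, the making of secondary metabolites such as polyketides and nonribosomal peptides, and in time the formation of spores. Genes for one secondary metabolite usually lie next to each other in fungal genomes and are switched on together.

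Reads on genes ranged from 205778 to 979256 per library, 1.41 to 3.40% of all reads in the files, and the lowest totals were those of the 24 h starvation cultures. One read was worth 1.02 to 4.86 CPM. The 97 members together took 0.143 and 0.171% of gene reads in the glucose libraries, 0.221 and 0.278% in the straw libraries, 3.79 and 4.47% at 6 h of starvation and 5.72 and 6.14% at 24 h. CPM is a share of the gene reads, so a fall in other transcripts and a rise in the members cannot be told apart in it, nor can fewer cells of a kind be told apart from less RNA per cell. The label of mycelium was checked against 7 markers of the other cells that starving hyphae can form, the conidiophore regulators brlA, abaA and wetA, the spore pigment genes fwnA, olvA and brnA, and ctcB. Their summed level was 109 to 146 CPM in the glucose and straw libraries, 181 and 242 CPM at 6 h, and 1477 and 1779 CPM at 24 h of starvation. Of the sums at 24 h, fwnA alone held 884 and 1224 CPM. None of the 7 was a member.

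In the 97 members the median of the mean level was 5.38 CPM on glucose and 6.39 CPM on straw, against 217 CPM at 6 h and 345 CPM at 24 h of starvation. No read at all was found in the 4 glucose and straw libraries for 12 members, and 1 to 3 reads for a further 13. The ratio of the rule was 10 or more in 24 members and between 3 and 5 in 45, with a median of 5.24. Just inside the threshold lay An08g04120 with a ratio of 3.02, An08g09880 with 3.03 and An11g00060 with 3.04, and just outside it An04g03850 with 2.98, An12g05370 with 2.96 and An15g07230 with 2.95. Of the 97, 91 carried a CBS identifier (beginning with An) and all 91 were found in the RefSeq gene table (assembly ASM285v2). The other 6 are named by their gene model. Only 19 members had a symbol or a description in the sources used, and 21 had a term in the study's annotation lists, so that most can be given by identifier alone.

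**Figure D1:**
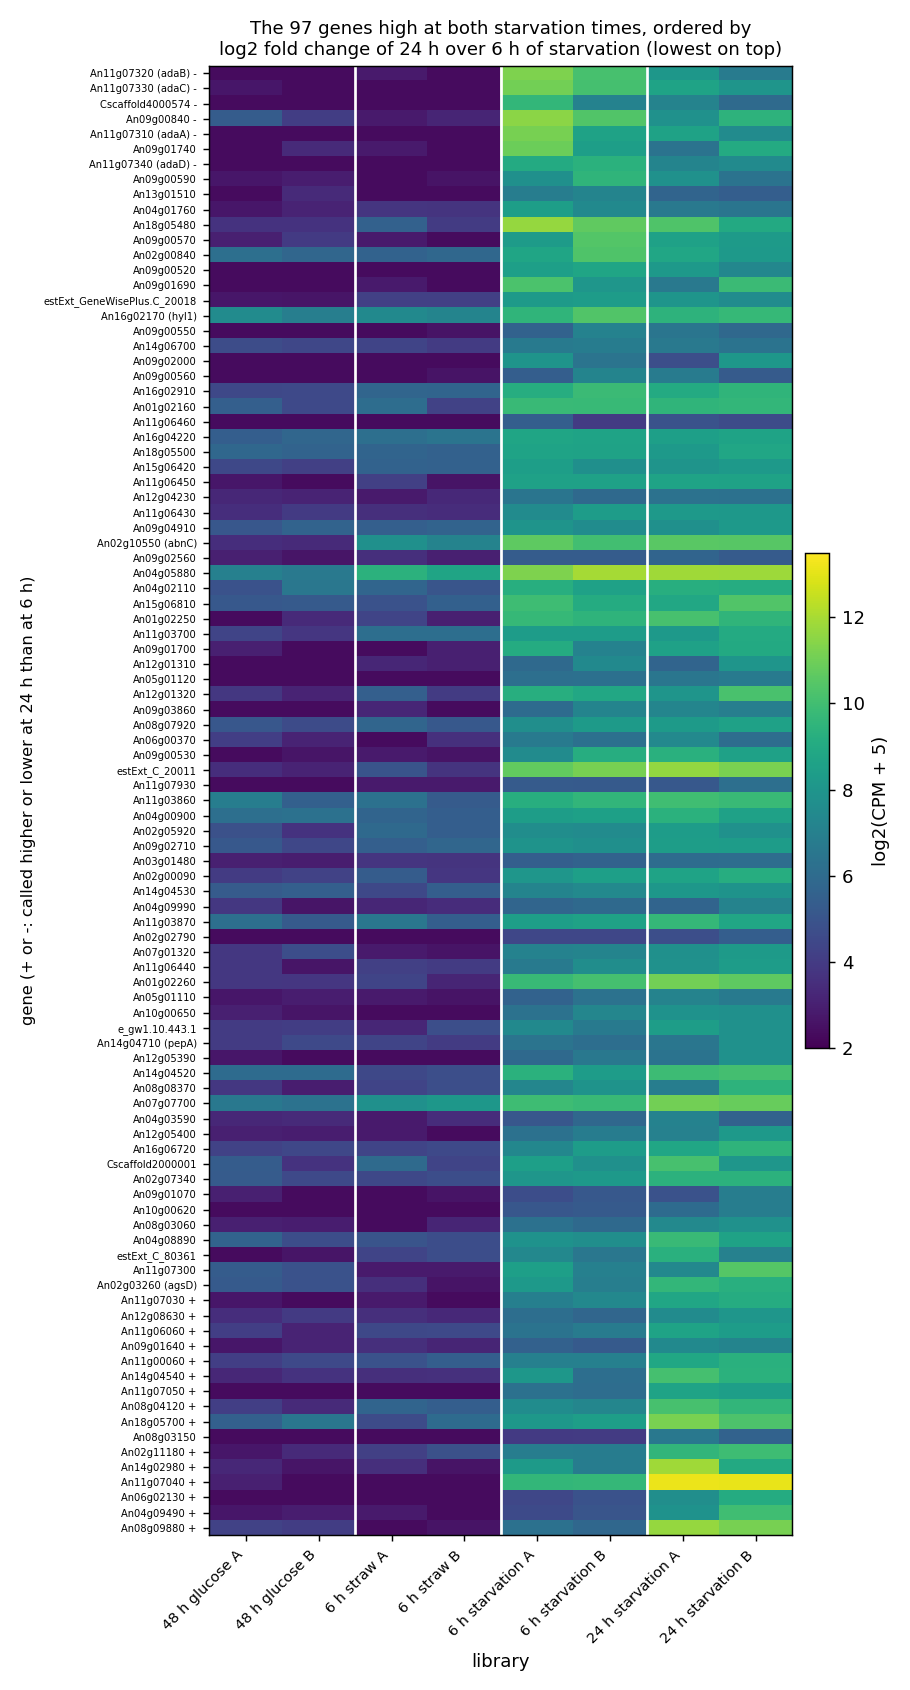
Level of each of the 97 members (rows) in the 8 libraries (columns), as log2(CPM + 5) in colour, ordered by the log2 fold change from 6 h to 24 h of starvation with the most negative on top; a plus or minus after the name marks the 15 members called higher and the 6 called lower at 24 h. The 4 starvation columns are brighter than the glucose and straw columns in every row, which is how the rows were chosen, while the order from top to bottom shows how the 2 starvation times differ.

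The largest ratio belonged to An11g07040, a short gene whose product has no description in the sources used. It had 3.15 and 0 CPM in glucose cultures A and B, 0 in both straw cultures, 784 and 795 CPM at 6 h and 9124 and 8903 CPM at 24 h of starvation. The 2 cultures of each time lay close together, and those of 24 h were far above those of 6 h. With 2 reads in all glucose and straw libraries, the pooled starvation level was 5632 times the pooled level there, with an exact 95% interval for counting error of 1558 to 46521. Per length, in deposited RPKM (read density per kilobase of gene, scaled to all reads of the library and not only those on genes), it stood at 21.6 ± 3.17 at 6 h and 261 ± 72.5 at 24 h (SD, n = 2), the highest mean of the 97 members at 24 h. It alone held 1.75 and 2.10% of the members' gene reads in the 6 h libraries, and 14.9 and 15.6% in the 24 h libraries.

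Its neighbours on both sides in locus order were members too. An11g07030 had 1.57 and 0 CPM on glucose, 2.22 and 0 on straw, 121 and 159 at 6 h, and 440.1 and 544 CPM at 24 h. An11g07050 had no read on glucose or straw, 72.1 and 64.2 CPM at 6 h, and 406 and 340.2 CPM at 24 h. All 3 genes thus had non-overlapping cultures at the 2 times, with 24 h on top. The gene before them, An11g07020, and the gene after them, An11g07060, were not members, the first because of its glucose level (96.0 and 96.2 CPM) and the second because of its low level at 6 h (6.36 and 2.79 CPM).

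Such runs of neighbours were common among the members. Position was not used by the rule, and 32 of the 91 members with such a locus tag (35.2%) lay directly next to another member in locus order, whereas 171 of 14058 protein-coding genes in that order (1.22%) had a member as direct neighbour. Allowing up to 2 other genes between members, 38 members fell into 13 runs, of which 6 held 3 members or more and the longest held 6. A gene within 2 places of a run could not be a member, since the run would then have included it. A drop of the ratio at the edges was therefore fixed beforehand. Of 52 such genes, 3 had a ratio of 2 or more and 9 a ratio above 1, and of 7 other genes lying inside runs none had a ratio above 1. Some genes beside runs were raised in a part of the starvation libraries, such as An14g04550. It had 0 to 3.15 CPM on glucose and straw, 14.8 and 2.79 CPM at 6 h and 187 and 97.2 CPM at 24 h. Whether neighbouring gene models overlap, and whether the counting used strand, is not given in the sources used here, so that reads shared between adjacent models were not tested as a part of these runs.

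**Figure D2:**
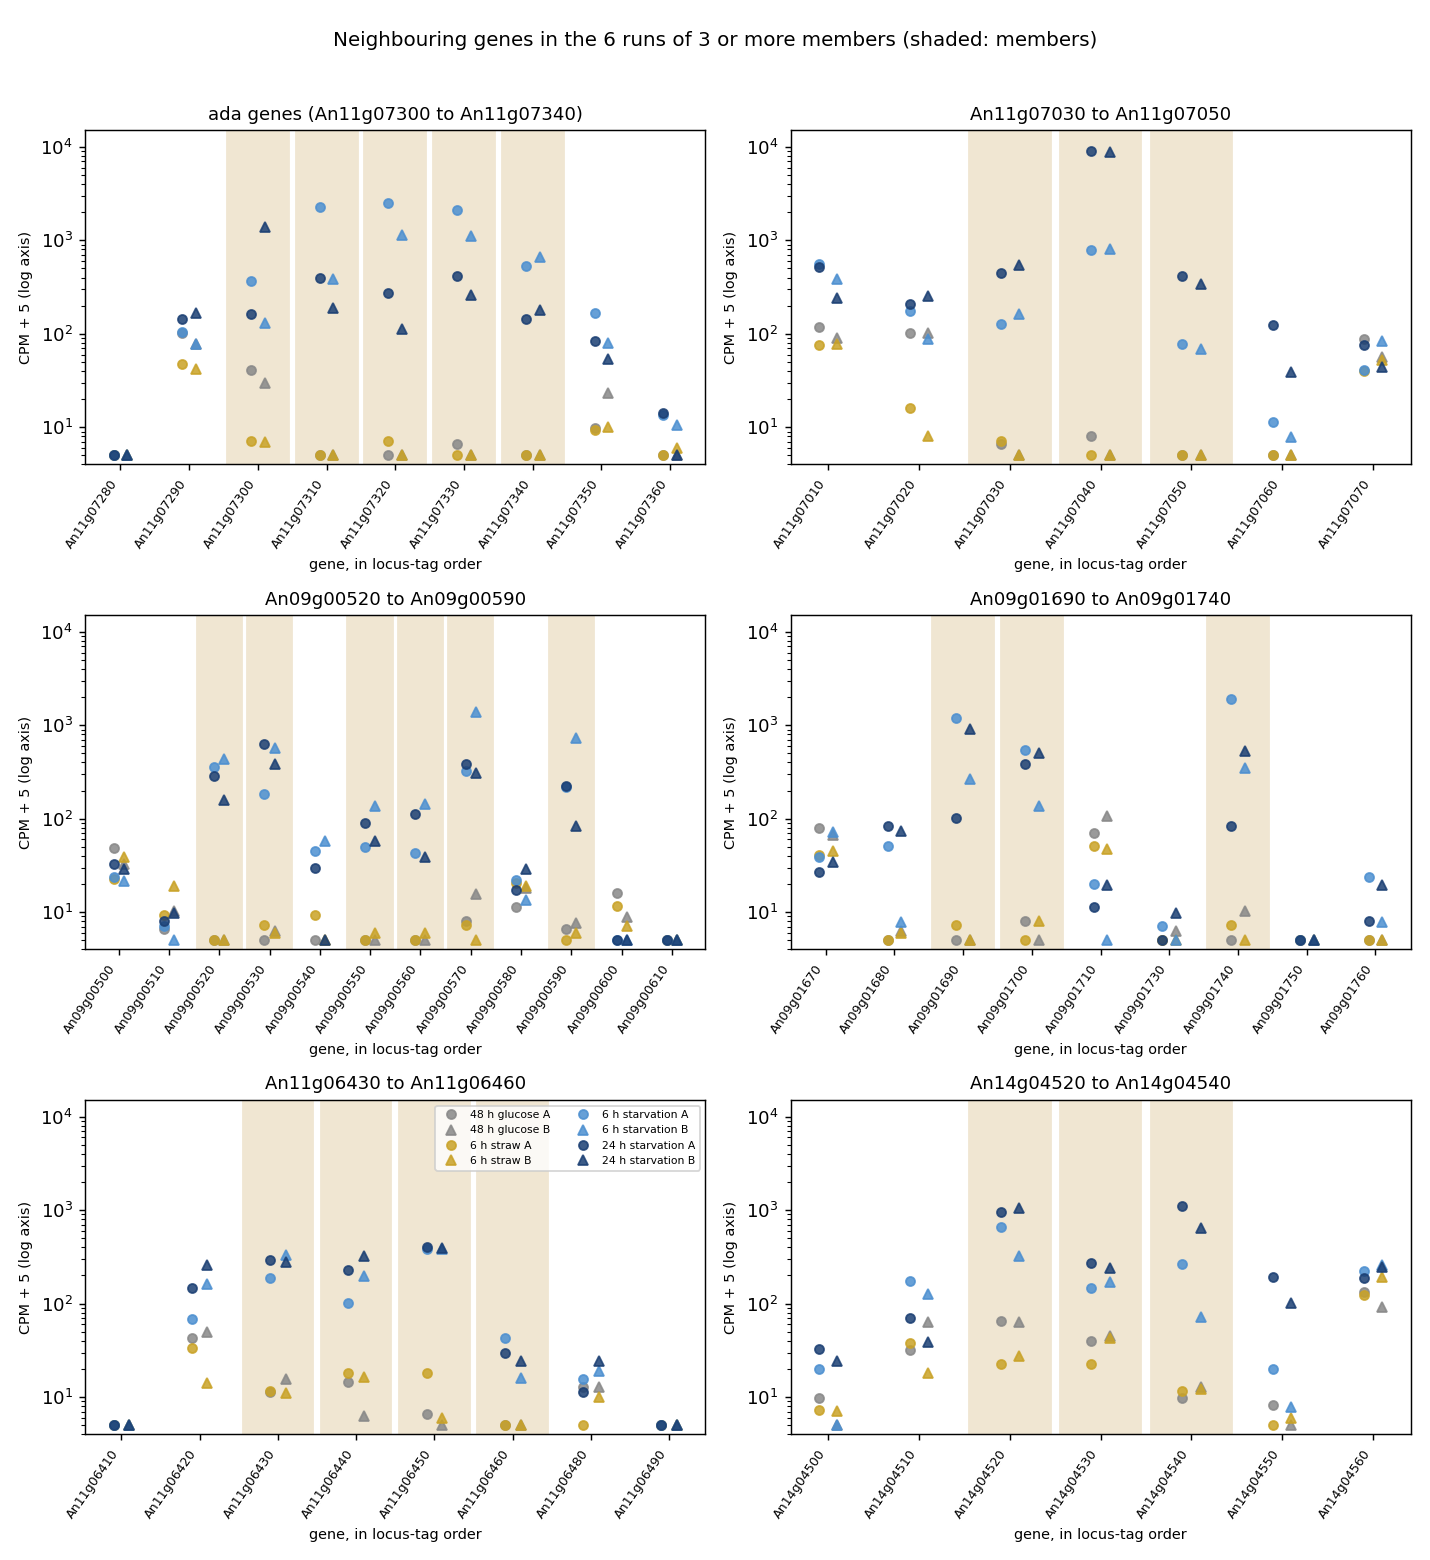
CPM + 5 (log axis) of each gene in the 6 runs of 3 or more members, in locus-tag order with 2 genes on each side; colours are the 4 conditions, circles culture A and triangles culture B, and members are shaded. In each panel the blue starvation points stand above the grey and yellow points within the shading, and fall together with them in most of the genes outside it.

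The second run was the ada cluster, which in A. niger makes the polyketide TAN-1612. Its members were adaA (An11g07310), the polyketide synthase that builds the carbon chain, adaB (An11g07320), a hydrolase of the β-lactamase type that helps to release it, adaC (An11g07330), a flavin-dependent monooxygenase, and adaD (An11g07340), an O-methyltransferase. These 4 biosynthetic genes had 2 reads between them in the 4 glucose and straw libraries. The synthase gene adaA had 2277 and 385 CPM at 6 h and 393 and 185 CPM at 24 h of starvation, and no read elsewhere, which with a floor of 3 reads over those 4 libraries made it at least 955-fold higher in starvation. Its 2 cultures at 6 h were far apart, and culture B of 6 h fell below culture A of 24 h. The next gene, adaB, had 2497 and 1124 CPM at 6 h and 268 and 107 CPM at 24 h. The monooxygenase gene adaC had 2122 and 1113 CPM at 6 h and 409 and 253 CPM at 24 h, and adaD 526 and 653 CPM at 6 h and 140.5 and 175 CPM at 24 h. Apart from adaA, the cultures of the 2 times did not overlap in these genes, and 6 h was the higher.

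The regulator gene of the cluster, adaR (An11g07350), lay beside adaD and was not a member. It was at 4.72 and 18.5 CPM on glucose, 4.44 and 5.11 on straw, 163 and 75.3 at 6 h, and 78.0 and 48.6 at 24 h of starvation, which gave a ratio of 2.28. The gene on the other side, An11g07300, was a member but had another course. It had 36.2 and 25 CPM on glucose, 2.22 and 2.04 on straw, 360.4 and 126 at 6 h, and 159 and 1395 CPM at 24 h, so that it had reads on glucose where adaA to adaD had almost none, and its highest value was in a 24 h culture.

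The longest run went from An09g00520 to An09g00590, with 6 members. An09g00550 is annotated with drug transport, and An09g00520, An09g00530, An09g00570 and An09g00590 have no role in the sources used. An09g00560, which carries a symbol, description or term there, had 38.2 and 139.5 CPM at 6 h and 106 and 34.0 CPM at 24 h. An09g00520 had no read on glucose or straw, 349.8 and 435 CPM at 6 h and 281 and 156 CPM at 24 h, at least 307-fold higher in starvation by the same floor. An09g00570 reached 316 and 1387 CPM at 6 h and 384 and 306 CPM at 24 h. An09g00530 had 180.2 and 564 CPM at 6 h and 624 and 379 CPM at 24 h. The 6 members leaned the same way in each pair of cultures: at 6 h culture B was the higher in 6 of 6, and at 24 h culture A was the higher in 6 of 6. The 2 genes inside the run that were not members were An09g00540, which had reads in 3 of the 4 starvation libraries (40.3, 53.0, 25 and 0 CPM), and An09g00580, which was at 6.29 to 15.5 CPM on glucose and straw and at 8.37 to 24.3 CPM in starvation.

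The run from An09g01690 to An09g01740 had 3 members and the opposite lean, with culture A higher at 6 h and culture B higher at 24 h in 3 of 3. An09g01690 had 1191 and 262 CPM at 6 h and 96.8 and 914 CPM at 24 h, and An09g01740 had 1908 and 340.4 CPM at 6 h and 78.0 and 525 CPM at 24 h. Between them An09g01700, annotated with drug transport, had 538 and 131 CPM at 6 h and 384 and 496 CPM at 24 h. The cultures of one time therefore differed by more than the 2 times did, and none of the 3 passed the test between times. An09g01710, between members of this run, ran the other way, with 42.9 to 102 CPM on glucose and straw and 0 to 14.8 CPM in starvation. Over all 97 members, 12 had cultures at least 3-fold apart at 6 h and 14 at 24 h, without one culture being the higher throughout, since culture A was above B in 48 members at 6 h and in 54 at 24 h.

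The run from An11g06430 to An11g06460 had 4 adjacent members, none of them called between the times. An11g06450 had 379 CPM in both 6 h cultures and 396 and 389 CPM at 24 h, against 0 to 13.3 CPM on glucose and straw. An11g06430 had 184 and 324 CPM at 6 h and 287 and 272 CPM at 24 h. An11g06440 had 97.5 and 193 CPM at 6 h and 222 and 321 CPM at 24 h, so that in this gene both 24 h cultures lay above both 6 h cultures. An11g06460, the longest gene model of the run, was only just in reach of the depth, at 38.2 and 11.2 CPM at 6 h, 25 and 19.4 CPM at 24 h and no read elsewhere. In the run from An14g04520 to An14g04540 all 3 members had a level on glucose that could be measured, and An14g04520 was the highest of them there, with 59.8 and 59.3 CPM on glucose, 17.7 and 22.5 on straw, 649 and 321 at 6 h, and 949 and 1055 CPM at 24 h. An14g04540, with 4.72 to 7.91 CPM on glucose and straw, had 263 and 67.0 CPM at 6 h and 1114 and 641 CPM at 24 h.

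The other 7 runs were pairs. An01g02250, with predicted ATP binding and nucleoside triphosphatase domains, and An01g02260 were among the members with the highest ratios, at 34.4 and 42.3. An01g02250 had 0 to 15.5 CPM on glucose and straw, 837 and 700.3 CPM at 6 h and 1133 and 724 CPM at 24 h. An01g02260 had 4.08 to 15.5 CPM on glucose and straw, 863 and 1105 CPM at 6 h and 2085 and 1613 CPM at 24 h. In An01g02260 both 24 h cultures lay above both 6 h cultures, with a log2 fold change of 0.60 (SE 0.411) that was not called, while in An01g02250 the times overlapped. An01g02160, a predicted membrane transporter some genes away, had 895 and 848 CPM at 6 h and 743 and 773 CPM at 24 h. In the pair An12g05390 and An12g05400 culture B was the higher at both times in both genes, and An12g05370, 2 genes before it, was the gene second closest below the threshold. Beyond the runs, the gene model estExt_C_20011 had the second highest ratio of all, 53.3, with 3.96 to 26.6 CPM on glucose and straw, 1679 and 2260.0 CPM at 6 h and 3178 and 2347 CPM at 24 h.

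Outside the ada run, few members were annotated as genes for secondary metabolism, and most members carried no term to judge by. An16g06720, annotated with nonribosomal peptide biosynthesis, had 14.2 to 18.4 CPM on glucose and straw, 157 and 326 CPM at 6 h and 449 and 709.5 CPM at 24 h, but only 0.192 ± 0.118 and 0.451 ± 0.0262 RPKM (SD, n = 2) at the 2 times. An02g00840, which resembles nonribosomal peptide synthetases, had 44.4 to 67.7 CPM on glucose and straw, 428 and 1272 CPM at 6 h and 443 and 292 CPM at 24 h. Of the 23 genes of the secondary metabolism list, 4 were members (adaA, adaB, adaC and An16g06720). That list, like the others drawn from tables of the study, was made from the same libraries and is not independent evidence of direction.

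Carbohydrate-active enzyme genes made up 8 of the members. Among them, 3 encode putative α-mannosidases of glycoside hydrolase family GH92, enzymes that take mannose off the glycans of glycoproteins. An16g02910 was the highest of them, with 17.3 to 48.8 CPM on glucose and straw, 566 and 924 CPM at 6 h and 518 and 739 CPM at 24 h. An08g03060 had 72.1 and 55.8 CPM at 6 h and 165 and 219 CPM at 24 h, and An08g08370 had 151 and 234 CPM at 6 h and 112 and 685 CPM at 24 h. The putative α-1,6-mannanase gene An07g07700, whose product cuts the mannan backbone of fungal wall glycoproteins, had 92.8 and 76.5 CPM on glucose, 215 and 263 on straw, 975 and 873 at 6 h and 2085 and 1817 CPM at 24 h. It thus had the highest mean level of this group on straw and, like the mannosidases, it belongs to the study's own lists of enzyme genes. Of the 8 genes in the list for both starvation times, 5 were members, and cfcD, bgtC and mcoI were not, each with more reads on straw relative to starvation (ratios of 1.38, 0.96 and 0.32).

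Wall synthesis was represented by agsD (An02g03260), a putative α-1,3-glucan synthase gene, with 33.0 and 25 CPM on glucose, 6.66 and 1.02 on straw, 293 and 117 at 6 h and 777 and 607 CPM at 24 h. An02g02790, a putative xylosyltransferase gene of family GT90, was among the faintest members, with 16.7 to 38.9 CPM in starvation and no read elsewhere. The putative endo-α-1,5-arabinanase gene abnC (An02g10550), which acts on the arabinan side chains of plant pectin, had 1586 and 1035 CPM at 6 h and 1501 and 1477 CPM at 24 h, against 6.29 and 5.27 CPM on glucose and 215 and 138 CPM on straw. It was the one member among the 10 genes of the pectin breakdown list. An18g05480, an alcohol oxidase gene of family AA3, was one of the highest members at 6 h, with 3278 and 1671 CPM, and had 1279.8 and 505 CPM at 24 h, 7.87 and 7.91 CPM on glucose and 42.2 and 11.2 CPM on straw.

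Members for the use of protein, lipid and nitrogen were spread thinly over the lists. In the branched chain amino acid breakdown list An09g02710 was a member, with 31.5 and 17.1 CPM on glucose, 39.9 and 50.0 on straw, 233 and 204 at 6 h and 331 and 326 CPM at 24 h, and the other 3 genes of the list had ratios between 1.85 and 2.18. Of 26 fatty acid metabolism genes 3 were members, one of them being adaA, which carries that term as a polyketide synthase. An04g05880, annotated with fatty acid metabolism, antioxidant activity and the regulation of sporulation, was the member with the most reads on straw, at 661 and 409 CPM, and had 123 and 96.2 CPM on glucose, 2453 and 3954 at 6 h and 3677 and 3596 CPM at 24 h. An10g00650, annotated with fatty acid biosynthesis, had 76.3 and 151 CPM at 6 h and 228 and 214 CPM at 24 h, and its neighbour An10g00620, annotated with branched chain amino acid biosynthesis, 29.7 and 33.5 CPM at 6 h and 59.3 and 112 CPM at 24 h with no read on glucose or straw.

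The aspartic protease gene pepA (An14g04710), which encodes the aspergillopepsin that A. niger secretes in acid media, was near the threshold with a ratio of 3.07 and had 80.6 and 67.0 CPM at 6 h and 87.4 and 219 CPM at 24 h, against 11 to 18.5 CPM on glucose and straw. None of the other 5 genes of the protease list, which includes the regulator gene prtT, was a member. Of these, pepC had no read in any library, and pepB, pepE and pepF had a higher level on glucose than in any other condition. An02g00090, a putative prolidase gene whose kind of enzyme splits dipeptides ending in proline, had 9.19 to 35.5 CPM on glucose and straw, 257 and 357 CPM at 6 h and 403 and 564 CPM at 24 h. An09g04910, annotated with the regulation of nitrogen use, had 29.9 to 46.1 CPM on glucose and straw and 189.7 to 282 CPM in starvation. An02g05920, annotated with amino acid transport, had 7.91 to 55.5 CPM and 181 to 325 CPM, and An04g03590, annotated with glycerophospholipid breakdown, 2.22 to 6.13 CPM and 29.7 to 131 CPM. Stress and cell death terms marked An15g06810 (oxidative stress), with 24.4 to 40.8 CPM outside and 478 to 1336 CPM in starvation, and An02g07340 (programmed cell death), with 261 and 287 CPM at 6 h and 662 and 671 CPM at 24 h. No gene of the lists for aromatic compound, phenylalanine or quinate breakdown, for polyol and monocarboxylic acid transport, for autophagy (atg1 and atg8) or for acetate and glyoxylate use (acuD, acuE and facA) was a member. The gene hyl1 (An16g02170), for which no role is given here, had the highest level of the members on glucose, with 181 and 116 CPM there and 684 to 1336 CPM in starvation.

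How the members differed between the 2 starvation times was tested with edgeR's quasi-likelihood test on the counts of all 8 libraries, with Benjamini-Hochberg adjustment over 6357 genes, and a call needed both an adjusted p under 0.05 and a 3-fold or larger change of the mean RPKM. At 24 h, 15 of the 97 members (15.5%) were higher than at 6 h and 6 (6.19%) were lower, where over all genes tested 3.93% were called higher and 3.13% lower. The RPKM ratio and the edgeR estimate are scaled differently, and the ratio leaned towards 24 h. For An11g03700 the log2 fold change was −0.002 while the RPKM ratio was 1.25. Rises therefore met the call more easily than falls, in the members as in all genes tested. An11g07030 was called higher at a log2 fold change of 1.50, while An09g00590 at −1.92 and An04g01760 at −1.85 were not called lower. The median log2 fold change from 6 h to 24 h was 0.20 in the members and −0.08 in all genes tested. All 97 passed the filter on low counts, but their starvation level alone secured this, and the rule asked for a high level at both times. The shares and the median of the members therefore cannot be read against those of all genes tested. Without the TMM scaling, which moved the median of all genes from 0.24 to −0.08, 19 members were higher and 6 lower.

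The steepest rise was that of An08g09880, one of the 3 members nearest to the threshold. It had 74.2 and 53.0 CPM at 6 h and 3227 and 2265 CPM at 24 h, a log2 fold change of 5.10 (SE 0.470, adjusted p = 3.7e-06 by edgeR). Per length it stood at 3.70 ± 0.368 RPKM at 6 h and 177 ± 87.4 RPKM at 24 h (SD, n = 2), second to An11g07040 among the members at 24 h. An04g09490 had 19.1 and 27.9 CPM at 6 h and 231 and 1001 CPM at 24 h, a log2 fold change of 4.40 (SE 0.635). An06g02130, with no read on glucose or straw, had 17.0 and 25.1 CPM at 6 h and 203 and 529.7 CPM at 24 h, a log2 fold change of 3.80 (SE 0.562). In each of these 3 genes both 24 h cultures lay above both 6 h cultures, although those of 24 h were up to several-fold apart. No description of their products was found in the sources used.

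An11g07040 and its neighbours rose together. The log2 fold change was 3.20 (SE 0.476, adjusted p = 0.000279 by edgeR) for An11g07040, 2.13 (SE 0.405) for An11g07050 and 1.50 (SE 0.415) for An11g07030, which was named here for its place beside the other 2 and whose call was lost whenever any single starvation library was left out, with adjusted p between 0.00749 and 0.15 over all alternatives tried. Among the remaining rises, that of An02g11180 was 2.64 (SE 0.412) with 112 and 109 CPM at 6 h and 755 and 967 CPM at 24 h, that of An18g05700 2.22 (SE 0.487) and that of An08g04120 2.14 (SE 0.404). An14g04540 rose by 2.06 (SE 0.503) as the only called member of its run. An14g02980 rose by 3.01 (SE 0.697) from 305 and 109 CPM to 3721 and 505 CPM, a rise that rested on culture A of 24 h: without it the adjusted p was 0.519 by edgeR, the highest of the alternatives (from 6.05e-09), and fewer members, 9 in place of 15, were called higher. The calls of An18g05700 and An14g04540 were also lost without that culture, the latter without culture B of 6 h as well. The summed level of the 7 conidiophore and spore markers also rose between the times, mostly through fwnA, with 1224 and 884 CPM at 24 h. Among 6 tested, fwnA, olvA and brnA were called higher, and brlA, abaA and ctcB were not (adjusted p of 0.0523 to 0.0549 by edgeR). The untested marker wetA had 4.24 and 8.37 CPM at 6 h and 12.5 and 4.86 CPM at 24 h. The part of spore formation in the members' rise was not tested.

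The falls were headed by the ada genes, of which all 4 biosynthetic genes were called. The log2 fold change from 6 h to 24 h was −3.57 (SE 0.548, adjusted p = 0.000336 by edgeR) for adaB, −2.61 (SE 0.465) for adaC, −2.53 (SE 0.636) for adaA and −2.22 (SE 0.398) for adaD. The regulator gene adaR was tested and not called, so that 4 of the 5 listed ada genes were lower at 24 h. The call of adaA was lost without culture A of 6 h (adjusted p = 0.543 by edgeR, where the alternatives ranged from 6.26e-07 to 0.582) or without culture B of 24 h, and that of adaD without culture B of 6 h. The other called falls were those of An09g00840, −2.56 (SE 0.559), and of the gene model Cscaffold4000574, −2.57 (SE 0.645), which like adaA had a high culture A at 6 h (791 CPM against 134 CPM in culture B) and lost its call in the same cases. The call of An09g00840 was lost without culture A of 24 h. An09g00840 had 36.2 and 11.9 CPM on glucose, 2.22 and 4.08 on straw, 2921 and 1331 at 6 h and 218 and 690.1 CPM at 24 h, and per length it was the highest member at 6 h, with 64.0 ± 26.0 RPKM (SD, n = 2). The alcohol oxidase gene An18g05480 had a log2 fold change of −1.79 (SE 0.527, adjusted p = 0.0409 by edgeR) and missed the call only on the RPKM ratio.

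**Figure D3:**
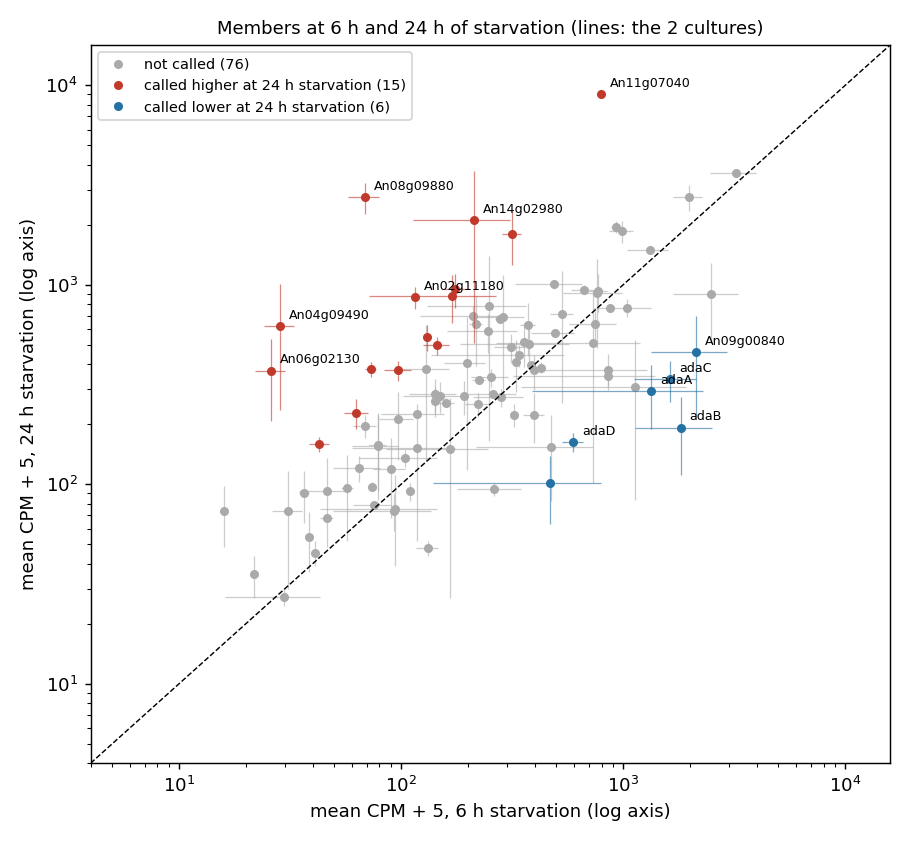
Mean CPM + 5 of the 97 members at 6 h (x) and 24 h (y) of starvation, both axes log; lines span the 2 cultures and the dashed line is equality. The 15 members called higher at 24 h are red and the 6 called lower are blue. An08g09880 stands farthest above the line and adaB farthest below it, while An11g07040 has the highest level at 24 h.

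The remaining 76 members were not called in either direction. Among them 4 had an adjusted p under 0.05 by edgeR and missed the call only on the RPKM ratio, all of them lower at 24 h: An09g00590 of the run from An09g00520 (log2 fold change −1.92, SE 0.526, adjusted p = 0.0271), An04g01760 (−1.85, SE 0.436, adjusted p = 0.0105), An18g05480 and An02g00840 (−1.50, SE 0.454, adjusted p = 0.0484). An04g01760 was named after its values were seen. The 76 include all 6 members of the run from An09g00520, all 4 of the run from An11g06430, the mannosidase and mannanase genes, abnC, pepA and An04g05880. For abnC the log2 fold change was −0.14 (SE 0.390) and for An04g05880 −0.12 (SE 0.412), with cultures of the 2 times overlapping in both. For An08g03060 it was 1.25 (SE 0.468) and for agsD 1.42 (SE 0.456), with both 24 h cultures above both 6 h cultures in each and adjusted p of 0.124 and 0.0636 by edgeR. Neither of these 2 differences passed the test after adjustment over the 6357 genes.

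**Figure D4:**
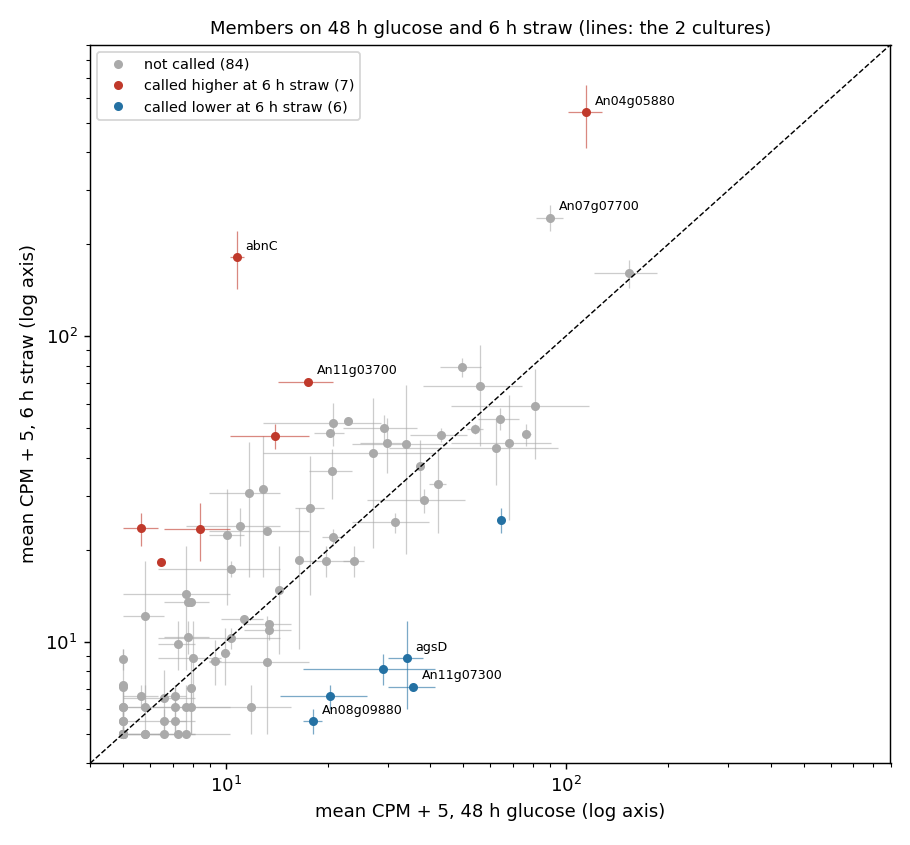
Mean CPM + 5 of the 97 members on 48 h glucose (x) and 6 h straw (y), both axes log; lines span the 2 cultures and the dashed line is equality. The 7 members called higher on straw are red and the 6 called lower are blue, abnC stands farthest above the line, and many members crowd in the lower left corner, where 1 read decides the value.

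Straw and glucose were compared too, although the members were chosen for low levels on both. On straw 7 of the 97 members (7.22%) were higher than on glucose and 6 (6.19%) were lower, by the same test and call. Over all genes tested 10.8% were called higher and 11.2% lower, but the shares of the members cannot be read against these. The rule held the members low in these 4 libraries, where 12 had no read and so could not be called, and 37 had under 10 reads together.

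The clearest of the rises on straw was that of abnC, with a log2 fold change of 4.90 (SE 0.547, adjusted p = 1.35e-06 by edgeR). An04g05880 rose by 2.32 (SE 0.443) and An11g03700 by 2.43 (SE 0.487), the latter from 15.7 and 9.23 CPM to 66.6 and 65.4 CPM. These 3 genes were raised on straw and were members because starvation lay a further 3-fold or more above it. The other rises were those of the gene models estExt_C_80361 (4.37, SE 1.16) and estExt_GeneWisePlus.C_20018 (3.05, SE 0.733), of An02g11180 (2.40, SE 0.642) and of An08g04120 (2.26, SE 0.527), the last from 12.6 and 5.27 CPM to 46.6 and 37.8 CPM. For An07g07700 the log2 fold change was 1.54 (SE 0.392, adjusted p = 0.00564 by edgeR), under the RPKM ratio asked for. The calls of estExt_C_80361 and An02g11180 were lost without glucose culture A or straw culture B, and that of An08g04120 without glucose culture B.

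The falls on straw were those of An08g09880 (−3.80, SE 0.887), An11g07300 (−3.68, SE 1.13), An07g01320 (−3.23, SE 0.800), agsD (−3.16, SE 0.757), An09g00840 (−2.66, SE 0.865) and An14g04520 (−1.49, SE 0.476). All 6 had a measurable level on glucose and nearly none on straw, apart from An14g04520, which kept 17.7 and 22.5 CPM. The number of reads on straw was small for An08g09880 (0 and 1.02 CPM) and An07g01320 (2.22 and 1.02 CPM). Leaving out straw culture B left 1 of these 6 falls called and leaving out straw culture A left 3. Both tests called 4 members: An02g11180 and An08g04120 were higher on straw than on glucose and, under starvation, rose between the 2 times, An09g00840 was lower in both comparisons, and An08g09880 was lower on straw and higher at 24 h.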

How the data were processed

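Total RNA depleted of rRNA was read on a SOLiD 5500xl instrument, and each of the 8 deposited tables gives 2 values per gene model. The deposited count gives the uniquely aligned forward reads that the authors assigned to a model with HTSeq. The RPKM values were computed by the authors from these counts. No strand setting of the counting is stated. The 5 summary rows of each table (reads on no gene, ambiguous or not aligned) were dropped, and CPM was taken over the 15431 gene rows.

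One edgeR fit (version 4.0.16, R 4.3.3) covered all 8 libraries, after filterByExpr by condition and TMM scaling, with 4 residual degrees of freedom. A gene with no read in the lower condition would have met the fold on the p alone. Tests were run for 24 h against 6 h of starvation and for 6 h straw against 48 h glucose. DESeq2 1.42.0, other scalings, no filter, the letter as a block, other thresholds and each library left out in turn were the alternatives. The pipeline was tested on simulated data.

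The members and the 23 gene lists were chosen with earlier results of these data known. Named members were those on a list or with a symbol, description or term, the 10 with the highest starvation CPM, the 10 with the largest ratio, up to 10 called members per comparison and direction with the largest change, and the 3 on each side of the threshold. Members of runs of neighbours were named besides, after their values were seen. Neighbours follow the order of locus tags in RefSeq (ASM285v2). Intervals and floors (3 reads over the libraries compared) cover counting error only. Because the deposited tables were counted on another strain's models, no coordinates or sequences are printed.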

Additional observations from a re-analysis of the deposited data

Results flagged for a closer look

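The rise under starvation differed between the 2 times in 21 members by the direct edgeR test of 24 h against 6 h, in which the glucose level cancels. The log2 difference of the effect at 24 h minus that at 6 h was 5.10 for An08g09880, 4.40 for An04g09490, 3.80 for An06g02130, 3.20 for An11g07040, 3.01 for An14g02980 and 2.64 for An02g11180. It was 2.22 for An18g05700, 2.14 for An08g04120, 2.13 for An11g07050, 2.06 for An14g04540, 1.80 for An11g00060, 1.70 for An09g01640, 1.69 for An11g06060, 1.61 for An12g08630 and 1.50 for An11g07030. It was negative for adaB (An11g07320, −3.57), adaC (An11g07330, −2.61), Cscaffold4000574 (−2.57), An09g00840 (−2.56), adaA (An11g07310, −2.53) and adaD (An11g07340, −2.22). The calls of An09g01640 and An12g08630, like that of An11g07030, were lost whenever any single starvation library was left out. That of An11g06060 was lost without culture A of 6 h or culture A of 24 h, and that of An11g00060 without culture B of 24 h. Of these 21 calls, 9 held under all 15 alternatives.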

How the results depend on the processing

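None of the 34 called differences of members (21 between the starvation times, 13 between straw and glucose) changed direction under the 15 alternatives, and 14 were called under every one of them. Of 510 alternative values, 461 kept the call and 49 lost it. Using the adjusted p alone, 10 members were lower at 24 h in place of 6 and 11 were higher on straw in place of 7. Leaving out single libraries gave 9 to 15 members higher and 6 to 7 lower at 24 h than at 6 h, and 6 to 9 higher and 1 to 7 lower on straw than on glucose. Without culture A of 24 h, 9 were higher at 24 h, 8 of them among the 15. Without straw culture A, 3 were lower on straw, and without straw culture B, 1. Where a condition kept 1 culture, it was assumed to vary like the other conditions. By DESeq2 the counts were 12 higher and 4 lower at 24 h, and 7 and 6 on straw, and adaA, Cscaffold4000574, An14g02980, An12g08630 and An09g01640 lost their calls. The number of members was 181 with a fold of 2, 52 with a fold of 5, 23 with RPKM plus 0.5 in place of CPM plus 5, an offset that weighs more because RPKM divides by all reads, and 98 on TMM library sizes, 95 of them shared. With an offset of 1 CPM the number was 141, and with an offset of 10 CPM it was 77. It was 104 to 140 when a library was left out of the rule. Nothing states that the letters A and B pair the cultures. Differences of A from B correlated across 5460 genes at 0.20 between 6 h and 24 h of starvation, at 0.02 between glucose and straw and at 0.31 between 6 h straw and 6 h starvation, while the other 3 pairs of conditions lay between −0.10 and 0.00. With the letter as a replicate block 16 members were higher and 6 lower at 24 h, and 7 higher and 6 lower on straw.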
